A study of Rattus norvegicus with 6 samples.

Results

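The hepatocyte identity transcription factors are the DNA-binding proteins that together set and keep the gene program of liver parenchymal cells. They were taken as 8 genes, Hnf4a, Cebpa, Cebpb, Foxa1, Foxa2, Foxa3, Onecut1 and Prox1, and every probe that the platform annotation assigns to one of these symbols was included. All 8 genes were present on the array, at 9 of its 22523 probes. Foxa2 had 2 probes and each of the others had 1.

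The samples were non-tumor liver from 6 male Wistar rats, hybridized as total RNA to Illumina bead arrays with 1 array per rat. All 6 had received diethylnitrosamine (DEN, a hepatocarcinogen that the liver activates) by weekly intraperitoneal injection at 50 mg/kg for 18 weeks. From week 13 to week 18, 3 rats (EGCG_228, EGCG_234 and EGCG_236) were given the green tea catechin EGCG (epigallocatechin gallate) at 0.02% in the drinking water on 5 days a week, and 3 rats (water_224, water_227 and water_237) were given water. They were killed at week 19, after a washout from DEN. No group without DEN was analysed here, so every comparison is between DEN-treated livers, and the labels do not give the ages.

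In liver, these factors work as a mutually reinforcing network. FOXA proteins are forkhead factors that open compacted chromatin at liver enhancers, HNF4A is an orphan nuclear receptor that activates genes of metabolism, transport and blood protein secretion, and ONECUT1 (also called HNF6) is a cut-homeodomain factor of hepatocyte and bile duct development. C/EBPA and C/EBPB are basic leucine zipper (bZIP) factors that bind the same DNA element. C/EBPA is associated with quiescent, metabolically mature hepatocytes and C/EBPB with the acute phase response, injury and regeneration, while PROX1 is a homeodomain factor of hepatoblasts, hepatocytes and lymphatic endothelium that can restrain HNF4A.

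Upstream sequence was available from RefSeq (rat build GRCr8) for 5 of the 8 genes, in 6 records. The 250 bases before the annotated transcription start are shown for Foxa2, which had the largest difference between the groups among the 8 genes, and for the C/EBP pair, whose responses are compared within each rat. Foxa2 lies on the minus strand (chr3:155927509-155927758), Cebpb on the plus strand (chr3:176816755-176817004) and Cebpa on the plus strand (chr1:96896334-96896583). Each is written 5′ to 3′ in the direction of the gene, and capitals mark matches to the motifs searched.
Foxa2: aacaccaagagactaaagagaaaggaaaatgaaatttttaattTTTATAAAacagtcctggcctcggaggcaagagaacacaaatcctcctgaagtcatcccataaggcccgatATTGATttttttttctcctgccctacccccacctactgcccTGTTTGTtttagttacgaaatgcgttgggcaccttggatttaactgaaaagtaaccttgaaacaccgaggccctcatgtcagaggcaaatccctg
Cebpb: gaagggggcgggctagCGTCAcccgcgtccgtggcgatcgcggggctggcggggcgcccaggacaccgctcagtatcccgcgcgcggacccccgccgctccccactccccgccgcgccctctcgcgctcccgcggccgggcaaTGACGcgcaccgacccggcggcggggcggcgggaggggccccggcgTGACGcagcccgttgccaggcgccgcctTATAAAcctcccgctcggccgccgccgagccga
Cebpa: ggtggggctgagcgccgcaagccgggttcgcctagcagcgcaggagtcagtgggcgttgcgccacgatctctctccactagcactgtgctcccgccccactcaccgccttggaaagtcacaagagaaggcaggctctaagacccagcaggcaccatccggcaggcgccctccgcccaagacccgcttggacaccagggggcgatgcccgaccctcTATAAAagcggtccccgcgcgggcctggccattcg

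The motifs searched on both strands were TGACG (the core of the cAMP response element), ATCAAT (the core bound by ONECUT factors), TGTTTAC and TGTTTGT (forkhead sites), TTGCNNAA (the C/EBP palindrome) and TATAAA (the TATA box). In the Cebpb window TGACG occurred 3 times, and the copies nearest to the gene start 107 and 61 bases before the transcription start, with the other farther upstream on the opposite strand. TGACG was found in 18.2% of 33469 rat promoter windows of the same length. The Foxa2 window held ATCAAT once on the opposite strand, 136 bases before the start, and TGTTTGT once, 95 bases before it; these motifs occurred in 7.1% and 5.64% of all windows. The Cebpa window held only TATAAA among the motifs searched, 35 bases before the start. Cebpb had TATAAA at 33 bases, and the 2 overlapping TATAAA matches of Foxa2, 1 on each strand, lie farther upstream (207 and 205 bases). TATAAA was present in 12.9% of all windows. TGTTTAC (3.21% of windows) and TTGCNNAA (9.22%) had no match in these 3 windows. A match is a description of the letters only.

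The liver label was borne out by hepatocyte markers. Of 18 hepatocyte markers with a probe, 17 passed the intensity filter described below, and the other, Apob, fell under it. The 17 included the plasma protein genes Hpx, Serpina1 and Tf, each at percentile 99.9 of probe intensity. The lowest of the 17, the retinol carrier gene Rbp4, stood at percentile 77.0. Array-wide intensity differed somewhat between rats: before normalization the 75th percentile of intensity was lowest in water_237 (176) and EGCG_236 (182), and mean intensity ran from 382 (water_237) to 531 (water_224). Values below are log2 intensities after background correction and quantile normalization, and differences are EGCG minus water on that scale. In bulk liver, fewer cells of a type and less RNA per cell cannot be told apart.

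None of the 8 transcription factors passed the test between EGCG and water (limma, adjusted p under 0.05): 0 were higher and 0 lower. Over all named genes, each at its brightest probe, 0.566% passed (52 of 9193), and over all 13514 probes past the filter 0.488%. At an unadjusted limma p under 0.05 there were 2, Foxa2 and Foxa1, both with EGCG higher, against 11.6% of named genes in either direction and 5.28% with EGCG higher. Without moderated variances 0 members passed after adjustment and 1 before it (Foxa1). The values of these same genes, Foxa1 and Foxa2, did not overlap between the groups, higher in every EGCG rat than in any water rat, where 8.25% of named genes had non-overlapping groups with EGCG higher. The median difference of the 8 genes was 0.07, and over all named genes it was 0.004. The members' median was not stable: with 1 rat left out it ran from -0.02 (without EGCG_228) and 0.0005 (without EGCG_234) to 0.20 (without water_224) and 0.27 (without EGCG_236). Of the 8, 4 lay above 0 and 4 below.

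**Figure D1:**
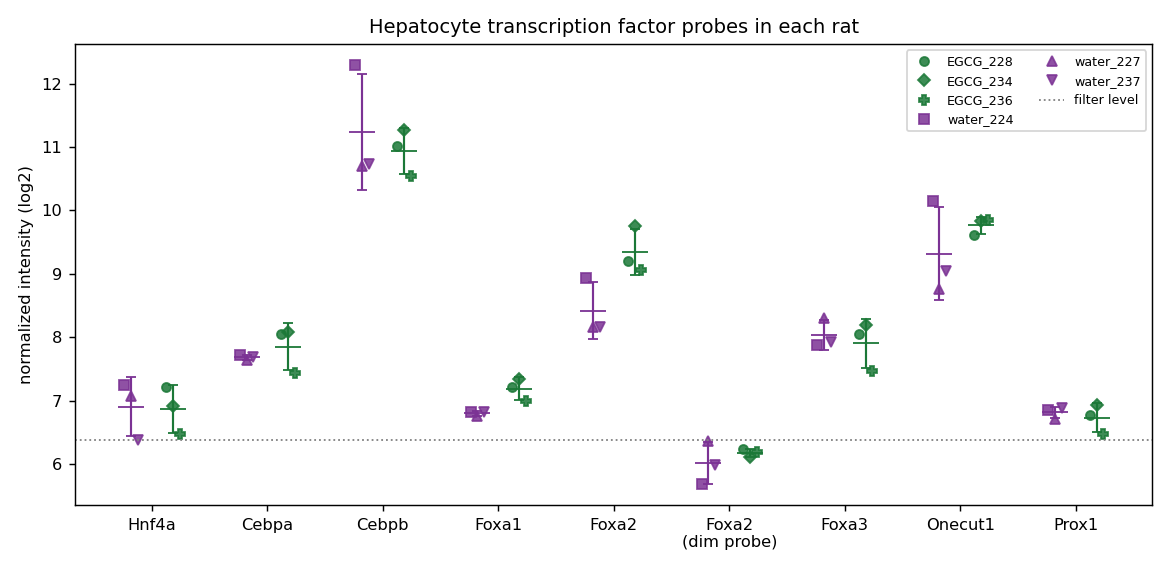
Normalized intensity (log2, y axis) of each transcription factor probe in each rat, with water in purple on the left and EGCG in green on the right of each pair. Symbols are single rats, horizontal ticks with bars are means ± SD of 3 rats, and the dotted line is the filter level of 6.39. EGCG and water separate for Foxa1 and the brighter Foxa2 probe, and water_224 stands above the other water rats for Cebpb, Onecut1 and Foxa2.

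Foxa2, the forkhead factor that maintains bile acid and fasting metabolism in the adult liver, had the largest difference of the 8 genes. At its brighter probe it read 9.20, 9.75 and 9.07 in EGCG_228, EGCG_234 and EGCG_236, and 8.94, 8.16 and 8.16 in water_224, water_227 and water_237. Every EGCG rat lay above every water rat, but the lowest EGCG rat and water_224 were close. The EGCG mean was 9.34 ± 0.36 and the water mean 8.42 ± 0.45 (SD, 3 rats each). The difference was 0.92 (SE 0.24, 95% interval 0.39 to 1.46), a ratio of 1.89, with a limma adjusted p of 0.164. Without water_224 the difference was 1.18 (SE 0.21) and passed the test (limma adjusted p = 0.0456). That was the only call of a member among 17 alternative settings, in which the difference stayed between 0.71 and 1.18.

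The second Foxa2 probe gave no usable reading of this difference. It stood at percentile 6.71 of probe intensity, below the filter, with 6.24, 6.11 and 6.19 in the EGCG rats and 5.69, 6.36 and 5.99 in the water rats. These groups overlapped. In the fit without the filter its difference was 0.16 (SE 0.14, 95% interval -0.14 to 0.47, limma adjusted p = 0.845).

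Foxa1, the paralog that acts with Foxa2 in opening liver chromatin, was dimmer and varied little within the groups. It read 7.21, 7.35 and 6.99 in EGCG_228, EGCG_234 and EGCG_236, and 6.83, 6.75 and 6.82 in the water rats in the order given above. The 3 water rats lay within a narrow band, and all EGCG rats lay above it. The difference was 0.39 (SE 0.12, 95% interval 0.12 to 0.65), a ratio of 1.31, with a limma adjusted p of 0.252. Across the alternatives and with each rat left out it stayed between 0.30 and 0.52, and it passed under none of them (lowest adjusted p = 0.0827, without EGCG_236).

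Foxa3, the third liver paralog, which is known as a regulator of glucose transport and lipid storage, did not share that direction in every rat. Its values were 8.05, 8.20 and 7.47 with EGCG and 7.87, 8.30 and 7.92 with water. The groups overlapped, with the lowest value in EGCG_236 and the highest in water_227. Its difference was -0.13 (SE 0.20, 95% interval -0.57 to 0.31, limma adjusted p = 0.899). The difference between the paralogs' responses was not tested.

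Onecut1, which in development acts upstream of Foxa2 and Hnf4a, had an estimate that depended on which water rat was included. Its EGCG values were 9.61, 9.84 and 9.85, while water_224 read 10.15, water_227 8.75 and water_237 9.05. The highest and the lowest value of the 6 thus both belonged to water rats. Its EGCG mean was 9.77 ± 0.14 and its water mean 9.32 ± 0.74 (SD, 3 rats each), and the difference was 0.45 (SE 0.30, 95% interval -0.21 to 1.10, limma adjusted p = 0.677). Leaving out water_224 gave 0.86 (SE 0.18, limma adjusted p = 0.0969), and leaving out water_227 gave 0.17 (adjusted p = 0.936).

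Hnf4a, the nuclear receptor at the center of the network, was read by a dim probe. Its deposited intensities, before any correction, were 177, 149 and 110 in the EGCG rats and 200, 168 and 106 in the water rats. In EGCG_236 and water_237 these lay below the array's own median intensity of 112 and 113, so that the probe was near the general background there. After normalization it read 7.22, 6.91 and 6.48 with EGCG and 7.26, 7.08 and 6.38 with water. The groups overlapped almost fully. The difference was -0.04 (SE 0.23, 95% interval -0.54 to 0.47, limma adjusted p = 0.979), and it turned to positive under 4 of 17 alternatives. Over the 6 arrays its normalized value ran with the log2 of the array's 75th percentile of intensity (Pearson's r = 0.911, given as a description). For the other 7 genes, at the probes past the filter, that r ran from -0.05 (Foxa1) to 0.78 (Cebpb), and the part of array intensity in these values was not tested.

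Cebpa, the C/EBP form of the resting hepatocyte, read 8.05, 8.08 and 7.43 in the EGCG rats and 7.72, 7.65 and 7.69 in the water rats. The water rats agreed closely, whereas EGCG_228 and EGCG_234 lay above them and EGCG_236 below. The difference was 0.17 (SE 0.18, 95% interval -0.22 to 0.56, limma adjusted p = 0.823). Without EGCG_236 it was 0.38 (limma adjusted p = 0.201).

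Cebpb, the C/EBP form induced in the acute phase and after injury, stood at percentile 96.4 of probe intensity and was the most variable of the 8 genes within groups. It read 11.01, 11.26 and 10.54 with EGCG, and 12.30, 10.70 and 10.73 in water_224, water_227 and water_237. The value in water_224 was the highest of the 6, and the other water rats lay within the range of the EGCG rats. On the deposited scale water_224 stood at 5859, and the other 5 arrays ran from 1305 to 2584. The difference was -0.30 (SE 0.37, 95% interval -1.13 to 0.52, limma adjusted p = 0.863), and without water_224 it was 0.23 (SE 0.23, adjusted p = 0.848).

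To compare the responses of the C/EBP pair, the value of Cebpa was subtracted from that of Cebpb within each rat. This within-rat value was 2.96, 3.18 and 3.11 in the EGCG rats and 4.57, 3.05 and 3.04 in the water rats. All rats but water_224 therefore fell within a narrow band. EGCG minus water was -0.47 (exact permutation test, two-sided, p = 0.7, n = 3 each), and 0.04 without water_224. With 3 rats against 3 the smallest p this test allows is 0.1.

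In water_224 the high Cebpb value came together with high immediate early transcripts, the genes such as Fos, Junb and Egr1 that respond within minutes to stress or growth signals. Of 15 immediate early genes measured, all 15 were highest in water_224, where 16.4% of all named genes had their highest value. Egr1 read 11.14 in water_224 and at most 8.96 in any other rat, and Junb read 11.93 and at most 9.92. Zfp36, which encodes an RNA-decay factor of the same early response, read 11.96 against at most 9.91. The mean of the 15 genes, relative to the water mean, was 1.06 in water_224 and ran from -0.65 to -0.24 in the other 5 rats. Between the groups 0 of the 15 passed, and their median difference was -0.39 with all rats, 0.08 without water_224 and -0.67 without water_227. What set this sample apart was not tested.

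**Figure D2:**
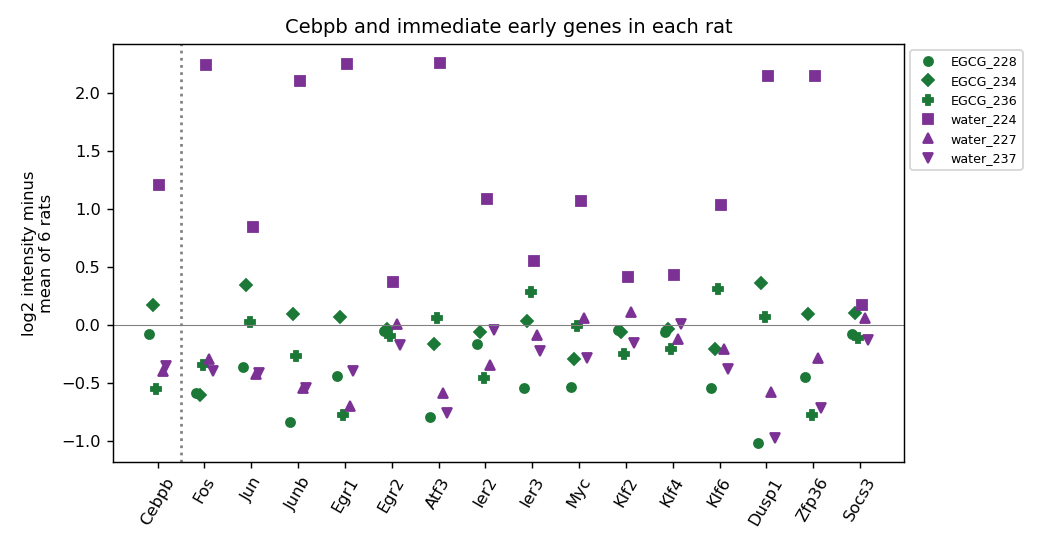
Log2 intensity minus the mean of the 6 rats (y axis) for Cebpb, left of the dotted line, and for 15 immediate early genes (x axis), with EGCG rats in green and water rats in purple. The square, water_224, is the highest rat for Cebpb and for all 15 genes.

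Prox1 read 6.78, 6.93 and 6.48 with EGCG and 6.85, 6.71 and 6.88 with water. The groups overlapped, and all 6 values were low (percentile 64.7 of probe intensity). Its difference was -0.09 (SE 0.13, 95% interval -0.37 to 0.20, limma adjusted p = 0.893).

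**Figure D3:**
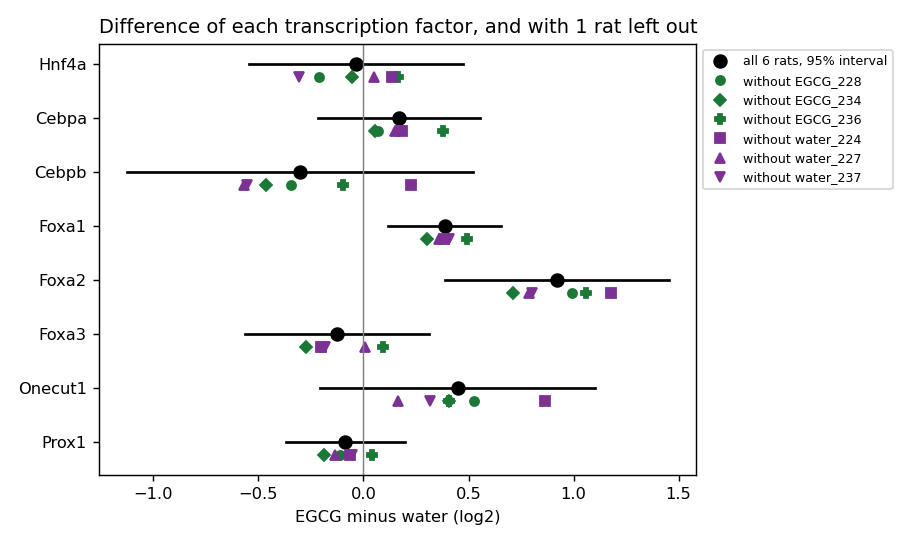
Difference between EGCG and water (log2, x axis) for each gene at its probe past the filter (y axis), as a black point with its 95% interval; the smaller symbols below it are the differences with 1 rat left out. The intervals of Foxa1 and Foxa2 lie above 0 before adjustment over all probes, and leaving out water_224 moves Cebpb from -0.30 to 0.23 and Onecut1 from 0.45 to 0.86.

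The 8 genes differed in how much they varied between rats of the same group. The pooled within-group SD was 0.70 for Cebpb, which placed it at percentile 99.1 of named genes, and 0.53 for Onecut1, at percentile 98.1. Both came mostly from the water rats, where water_224 was highest. The SD was 0.91 with water and 0.37 with EGCG for Cebpb, and 0.74 and 0.14 for Onecut1. These percentiles are over named genes of all intensities. Hnf4a (0.42) and Foxa2 (0.41) followed, at percentiles 96.5 and 96.1. Foxa1 varied least, with an SD of 0.13 at percentile 35.8, and the median over named genes was 0.16. The median difference of the members hides this spread: relative to the water mean, the mean of the 8 genes was 0.39 in EGCG_234 and 0.24 in EGCG_228, but -0.11 in EGCG_236. Among the water rats it was 0.34 in water_224, above EGCG_228 and EGCG_236, and -0.14 and -0.20 in the other 2. EGCG_236 was the lowest EGCG rat for 7 of the 8 genes, all but Onecut1.

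Across the 6 arrays the members did not move as 1 block, as pairwise Pearson's r shows as a description. The highest was 0.893, between Foxa1 and Foxa2, and Foxa2 also ran with Onecut1 (0.781). Cebpa ran with Foxa1 (0.744) and Prox1 (0.712). Foxa3 ran with Prox1 (0.627) and Cebpa (0.627) but not with Foxa2 (-0.09), and its r with Onecut1 was -0.48. Those with Foxa2 and Onecut1 were the only negative values. All other pairs were positive, the lowest being Cebpb with Foxa1 (0.007). All values share the same 6 livers. Searching 9192 other named genes for the pattern most like each member gave r above 0.97 for every nearest gene, which 6 arrays make common: at least 40 genes exceeded 0.9 for each member. For Foxa2 the nearest genes were Adra1b, the hepatic alpha-1B adrenergic receptor (r = 0.992), and Ralgps2 (0.991). For Cebpb they were Bcar1 (0.983) and Pfkl, liver phosphofructokinase (0.982). Hnf4a was nearest to the coagulation factor gene F5 (0.996) and to Itih4 (0.985), and Cebpa to Anpep (0.997) and Mospd3 (0.995). Foxa1 was nearest to Scrn2 (0.995) and Rnase4 (0.991), Foxa3 to Srpk1 (0.989) and Ostm1 (0.984), Onecut1 to Rnf125 (0.988) and Sh2b3 (0.974), and Prox1 to Kcnh4 (0.989) and Zp3r (0.985).

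Among other transcription factors of the hepatocyte network, 0 of 21 measured passed in either direction, while 18 had a difference above 0, against 51.1% of all named genes. Their median was 0.19, and 0.12 without EGCG_234 and 0.10 without water_237. The homeobox gene Hhex, required for liver bud formation, differed by 0.51 (limma adjusted p = 0.334), and Creb3l3, a membrane-bound factor of the fasting response, by 0.62 (adjusted p = 0.417). Nr2f6 differed by 0.38 (adjusted p = 0.45) and Nr0b2, the bile acid responsive repressor SHP, by 0.30 (adjusted p = 0.541). For 3 of the 21, Hhex, Nr2f6 and Nr1h3, EGCG and water rats did not overlap, with EGCG higher, where 8.25% of named genes had such groups. Hhex, like Foxa2, was higher in water_224 (11.35) than in water_227 (10.97) and water_237 (10.78).

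Other C/EBP family members and bZIP partners gave 0 of 13 past the test, with a median of -0.02, which ran from -0.21 (without water_237) to 0.07 (without water_224) with 1 rat left out. Fos differed by -1.03 (limma adjusted p = 0.563) and Nfil3, a repressor that binds related sites, by -0.62 (adjusted p = 0.629), both with their highest value in water_224 (9.20 and 10.13). Cebpg, which dimerizes with the other C/EBP proteins, differed by 0.21 (adjusted p = 0.668), and Tef by 0.19 (adjusted p = 0.677). Only 1 of the 13, Cebpg, had non-overlapping groups, with EGCG higher, as had 8.25% of named genes. Of 5 other forkhead genes past the filter 0 passed. Their median was 0.06, but -0.09 over the 9 genes measured without the filter. Foxo4 differed by 0.24 (adjusted p = 0.388) and Foxp1 by -0.23 (adjusted p = 0.625).

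Textbook target genes of the 8 factors were examined as lists, which share members and were not tested as sets. Of 23 HNF4A target genes 0 passed, and the median was 0.21. The liver pyruvate kinase gene Pklr differed by 1.11 (limma adjusted p = 0.104), the peroxisomal racemase Amacr by 0.89 (adjusted p = 0.142), the bile acid importer Slc10a1 by 1.09 (adjusted p = 0.24) and the glucose transporter Slc2a2 by 0.62 (adjusted p = 0.257). For 6 of the 23, Pklr, Amacr and Slc2a2 among them, EGCG and water rats did not overlap, with EGCG higher, where 8.25% of named genes had such groups. Relative to the water mean, the mean of this list was 0.32 and 0.44 in EGCG_228 and EGCG_234 but -0.12 in EGCG_236. Without EGCG_236 the median was 0.44.

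Among 15 C/EBPA target genes 0 passed. Their median was 0.03, and from -0.04 (without water_224) to 0.15 (without EGCG_236) with 1 rat left out. Tat, the tyrosine aminotransferase of the glucocorticoid and fasting response, differed by -1.17 (limma adjusted p = 0.202), Fabp1 by 0.58 (adjusted p = 0.238) and the liver glycogen synthase Gys2 by 0.65 (adjusted p = 0.239). The direction was thus mixed. Tat read 10.76, 10.66 and 10.77 with EGCG and 12.88, 11.45 and 11.38 with water, highest in water_224.

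The acute phase list, drawn from genes that C/EBPB is known to activate, had a median difference of -0.33, which was -0.19 without EGCG_236. Of its 15 measured members 1 passed, the siderophore-binding protein gene Lcn2, which was lower with EGCG at 8.93 ± 0.47 than with water at 10.43 ± 0.46 (SD, 3 rats each; limma adjusted p = 0.0414). The adjusted p of Lcn2 was under 0.05 in none of the 6 fits with a rat left out. The protease inhibitor A2m differed by -2.19 (adjusted p = 0.141), and by -3.11 without water_237, where it passed (adjusted p = 0.000117). Cd14 differed by -0.70 (adjusted p = 0.231) and Lbp, the lipopolysaccharide-binding protein, by -0.54 (adjusted p = 0.255). For 5 of the 15, Lcn2, A2m, Cd14 and Lbp among them, every EGCG rat read below every water rat. Across named genes, 8.23% had non-overlapping groups with EGCG lower. The groups overlapped for Cebpb itself.

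FOXA target genes, a list that includes Foxa2 itself, gave 0 of 14 past the test. The median was 0.06, and from -0.04 (without water_227) to 0.13 (without water_237) with 1 rat left out. Igfbp1, a liver secreted IGF binding protein that FOXA factors and insulin signaling control, had the lowest value in the list at -3.09 (SE 0.67, limma adjusted p = 0.0913). It read 9.06, 8.36 and 8.67 with EGCG and 13.75, 11.49 and 10.13 with water, so that the groups did not overlap and water_224 was again the highest rat. Without water_224 Igfbp1 was lower with EGCG by the test (-2.11, limma adjusted p = 0.0315). It also passed without water_237 (-3.94, limma adjusted p = 0.0202). With all rats it passed without the filter (limma adjusted p = 0.0464) and with array weights (-3.04, limma adjusted p = 0.0412). Cpt1a, the mitochondrial carnitine palmitoyltransferase, differed by 0.93 (adjusted p = 0.201) and Ttr, transthyretin, by 0.53 (adjusted p = 0.295). Of 10 ONECUT1 target genes, a list that holds Foxa2 and Hnf4a, 0 passed and the median was 0.24, or 0.57 without EGCG_236 and 0.44 without water_237. The sex-dependent cytochrome P450 genes Cyp2c13 and Cyp2c12 differed by 0.70 (adjusted p = 0.338) and -0.47 (adjusted p = 0.38). Both probes stood at percentile 99.2 of intensity in these male rats, and whether each reads its own gene alone was not tested. Of 7 PROX1 target genes 0 passed. Their median of 0.07 turned to -0.23 without EGCG_236, -0.13 without water_227, -0.08 without water_224 and -0.14 with array weights. Pdpn, podoplanin of lymphatic endothelium, differed by -0.69 (adjusted p = 0.0839) and Ccnd1, cyclin D1, by 0.93 (adjusted p = 0.27).

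**Figure D4:**
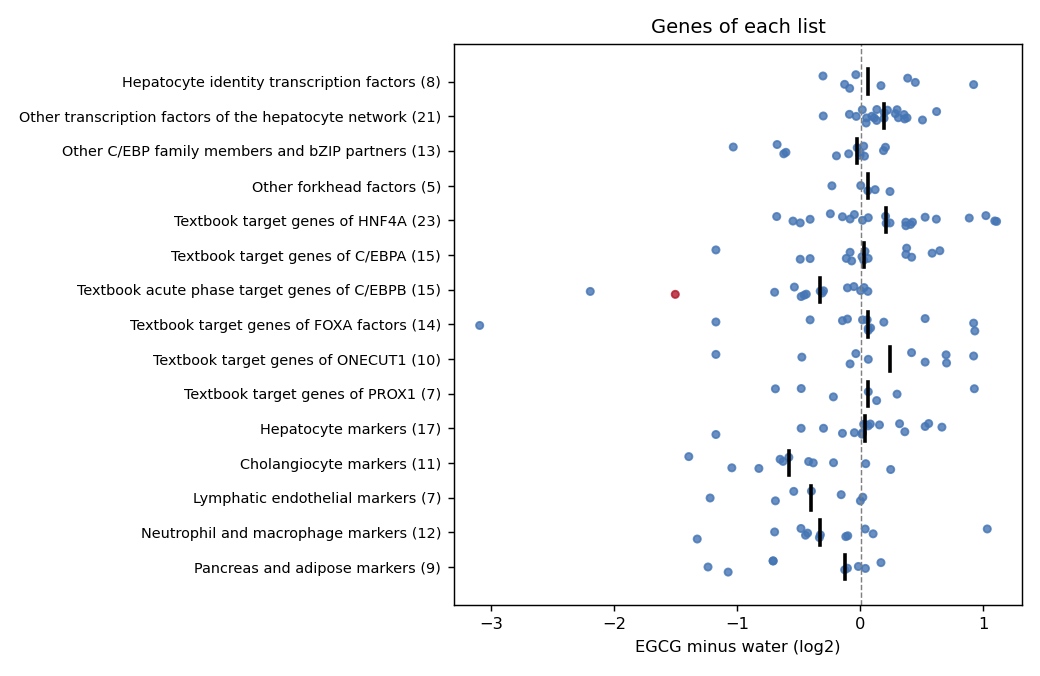
Difference between EGCG and water (log2, x axis) for each measured gene of each list but the immediate early genes (y axis, with the number of genes). Points are genes, red where the limma adjusted p was under 0.05 (Lcn2 alone) and blue otherwise, the black bar is the list's median, and the dashed line is the median of all named genes at 0.004.

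Some of these factors are also made by other cells of the sample: Onecut1 and Foxa2 by bile duct or pancreatic epithelium, Prox1 by lymphatic endothelium, and the C/EBP genes by myeloid and fat cells. The summed linear intensity of each of those marker lists, in which bright probes weigh most, was lower in every EGCG rat than in any water rat. Of single named genes, 8.23% had such groups, and the share for sums over other lists of genes was not tested. For 11 cholangiocyte markers (0 passed, median -0.58, and -0.37 without EGCG_234), the sum was 3952 to 5655 in the EGCG rats and 6865 to 8513 in the water rats. Lymphatic endothelial markers (7 measured, 0 passed, median -0.40, and -0.58 with a background offset of 16) summed to 2508 to 2544 and 2948 to 3258. The brightest, Lyve1, differed by 0.02 with overlapping groups, and the next, Reln, by -0.15. Groups did not overlap for 5 of the 7, with EGCG lower. Whether these genes read lymphatic endothelium alone in liver was not tested. For 12 neutrophil and macrophage markers (0 passed, median -0.33, and -0.22 without water_224) the sums were 9386 to 11764 and 12277 to 16554. Their mean log2 value, relative to the water mean, overlapped between the groups (-0.40 to -0.10 with EGCG and -0.14 to 0.16 with water). Within this list S100a8, a neutrophil calcium-binding protein gene, differed by -1.32 (limma adjusted p = 0.0892). Marco, a macrophage scavenger receptor gene, differed by 1.03 (adjusted p = 0.13). Groups did not overlap for 6 of the 12 with EGCG lower, S100a8 among them, and for 1, Marco, with EGCG higher. Over all named genes these shares were 8.23% and 8.25%. For 9 pancreas and adipose markers (0 passed) the sums were 2713 to 3075 and 3902 to 6529. The brightest of the 9 were the adipose genes Fabp4 (-1.07) and Cfd (-0.71). Pancreatic genes were mixed: Cpa1 differed by -1.24, Cela1 by -0.71, Gcg by -0.10, Cpb1 by 0.04 and Ctrb1 by -0.02. The median of this mixed list was -0.13, and it was -0.42 without water_227, -0.02 over 17 genes without the filter and -0.71 over 5 genes with the stricter filter. Hepatocyte markers (17 measured, 0 passed, median 0.04, and from -0.03 without water_224 to 0.16 without EGCG_236) overlapped, with sums of 234113 to 282616 and 245879 to 273632. Onecut1 and Foxa2 differed by 0.45 and 0.92, neither past the test, beside the cholangiocyte median of -0.58. The data carried no detection p-values, so that no marker can be called absent, and the part of other cells in the members' values was not tested.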

How the data were processed

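Bead intensities on a linear scale were deposited by the authors for 22523 probes; judged from their values (all positive, array medians 112.0 to 120.5) they were not background-subtracted or normalized. They were deposited beside a table of intensities they had normalized by a method not given in the sources used here. The scanner software is likewise not given, and neither table carried detection p-values or batch information. The non-normalized table was background-corrected by limma's normexp (offset 50, which shrinks differences of dim probes), then quantile normalized and log2 transformed. A filter at the 40th percentile of mean log2 intensity (6.39) kept 13514 probes.

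Symbols came from the platform annotation (13793 probes with 1 symbol, 0 with several, 8730 with none), updated through gene identifiers to RefSeq. A gene is its brightest probe. In the list counts, measured means past the filter unless stated otherwise. EGCG was compared with water over 6 arrays with limma (lmFit, eBayes with intensity trend, two-sided), Benjamini-Hochberg adjusted over all 13514 probes; SEs are moderated and the 95% intervals are for single genes. R 4.3.3 and limma 3.58.1 were used, and the fit was tested on simulated data. The number of arrays limits the precision. The rats' numbers are taken as separate animals.

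The members and the 15 other gene lists were chosen with earlier results of these data known. Named by rule were all member probes, up to 4 genes of a list with the smallest unadjusted p, any past the threshold, and the 2 genes nearest in pattern to each member. The genes named beside them for their overlap, brightness, difference or value by rat were chosen after their values were seen. They were Nr1h3, Junb, Egr1, Zfp36, Rbp4, Hpx, Serpina1, Tf, Lyve1, Reln, Gcg, Cpb1, Ctrb1 and Cyp2c12. Apob was named as under the filter, and Itih1 and Pfkfb1 as called in a fit with a rat left out. Some genes within the rule, Ccl21, Tspan8 and Krt19 among them, are given only as part of their lists. Alternatives covered the background, normalization, filter, variance model, array weights, the authors' table and each rat left out.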

Additional observations from a re-analysis of the deposited data

How the results depend on the processing

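No paired analysis was possible because the rats of the 2 groups carry different numbers. No member was called under the 11 alternatives that kept all 6 rats; with 1 rat left out the number called ran from 0 to 1, and the call was Foxa2 without water_224. The number of members at an unadjusted p under 0.05 was 2, and 1 without moderated variances, and ran from 2 to 3 with 1 rat left out. Hnf4a, at -0.04, turned to 0.054 with array weights and ran from -0.31 to 0.16 with 1 rat left out. The same omissions gave Foxa3 -0.27 to 0.091, Prox1 -0.19 to 0.041 and Cebpb -0.57 to 0.23. Cebpa, Foxa1, Foxa2 and Onecut1 stayed above 0 under all 17 alternatives. EGCG minus water of Cebpb less Cebpa ran from -0.73 to 0.044 with 1 rat left out, the last without water_224. The number of list genes called (1 of 155) was 2 with median scaling, 2 without the filter, 0 with the stricter filter, 0 without an intensity trend, 0 without moderated variances and 4 with array weights, and it ran from 0 to 6 with 1 rat left out. Lcn2 itself was not called with median scaling, with the stricter filter, without a trend, without moderated variances or with any rat left out. The 6 called without EGCG_236 were Cyp2e1, Fabp1, Itih1, Marco, Pfkfb1 and Ttr. Over all named genes 52 were called, 34 without an intensity trend, 0 without moderated variances and 142 with array weights, and with 1 rat left out from 8 (without EGCG_228) to 157 (without EGCG_236). The causes of these shifts were not tested. Hnf4a, Foxa1, Prox1 and the second Foxa2 probe were dim, and the offset compresses their differences.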
